A study of Mus musculus with 24 samples.

Results

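The account concerns the nerve of a mouse model of plexiform neurofibroma, a benign growth of the sheath of nerves, without drug. Its members are the 6 libraries whose treatment label reads vehicle, out of 24 libraries in the series, and they were chosen by that label alone. Each library was made from sciatic nerve of a mouse of genotype Nf1 flox/flox PostnCre+ that had received vehicle for 1 week. The other 18 libraries, 6 in each of 3 groups, came from the same genotype after 1 week of drug, either LY3214996 against the kinases ERK1/2 (ERKi), or abemaciclib against CDK4/6 (CDKi), or the 2 together (combination), and are used only to show how far the spread seen here recurs. All 24 nerves carried the floxed alleles and the Cre, so no nerve with intact Nf1 stands beside them. Cre is made only where the Postn promoter is active, so Nf1 can be lost only in cells that express or once expressed it, and whole nerve mixes those cells with cells that keep the gene. Age, sex and strain are not stated in the labels, and the labels do not say whether libraries came from separate animals. Sex-linked transcripts, given below, place the libraries in both sexes, so more than 1 animal was used. The spread between libraries may still be partly technical.

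A sciatic nerve holds the axons of neurons whose cell bodies lie outside it, Schwann cells that either wrap single axons in myelin or hold bundles of thin axons, fibroblasts of the endoneurium and epineurium, a perineurial sheath, vessels, macrophages and mast cells. Nf1 encodes neurofibromin, a protein that speeds the conversion of RAS from its active to its inactive state. Plexiform neurofibromas arise from Schwann cells that have lost it, and they are rich in collagen, fibroblasts, macrophages and mast cells. The growth factors made by one of these cells and read by another, such as stem cell factor and KIT or CSF1 and its receptor, are known from studies of this tumour.

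Levels are given in 2 units. CPM, counts relative to the library's total with TMM scaling between libraries, serve to compare a gene between libraries. TPM, the same counts divided by the length of the gene's exons and brought to a common sum, serve to compare genes with each other. Spread is the SD of log2 CPM over the 6 libraries, and a gene with a mean of at least 1 CPM and an SD of at least 1 is called variable. Total counts ran from 5391543 in vehicle 3 to 42321550 in vehicle 2. The floor of detection was set at 3 counts, which was worth 0.501 CPM in vehicle 3 and 0.0698 CPM in vehicle 2, and such floors cover counting error only. Of 24421 genes, 22686 had a count in a vehicle library, 14167 had a mean of at least 1 CPM and 12904 reached 1 CPM in all 6 (52.8% of the table). Libraries stood apart in 3 ways that touch results below. Vehicle 1 and 5 were low in genes of sensory neurons, vehicle 3 was the shallowest and held counts in the most genes (20669), and vehicle 4 stood at one end of several matrix and response lists.

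The markers of the labelled tissue were present. Dcn, which encodes the collagen-binding proteoglycan decorin of fibroblasts (chr10:97479609-97518143 on GRCm38), averaged 2856 ± 492 CPM (mean ± SD, n = 6, as are all values written this way), with a lowest value of 2183, a median of 2837 and a highest of 3705. Pecam1, which encodes the endothelial adhesion protein CD31 (chr11:106654217-106750628), averaged 41 ± 13.8 CPM, from 22.6 to 63.2 with a median of 40.0. Csf1r, the receptor gene of the macrophage growth factors CSF1 and IL-34, averaged 115 ± 14.2 CPM, from 97 to 130.4 with a median of 115. On the TPM scale Dcn lay at 2098 ± 502, Csf1r at 84.2 ± 9.63 and Pecam1 at 27.8 ± 8.84. Dcn thus ranked 17th among protein-coding genes, far above the endothelial and macrophage markers, and none of the 3 was variable.

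A myelin gene headed the protein-coding genes. Pmp22, which encodes a protein of compact peripheral myelin, ranked first at 12859.6 ± 2266 TPM, and its values per library ran from 9629 to 16354 TPM. Apod, which encodes the lipid carrier apolipoprotein D of nerve fibroblasts, followed at 8949 ± 2650.2 TPM. The matrix glycoprotein gene Sparc stood at 5343 ± 1049 TPM and the myelin basic protein gene Mbp at 2688 ± 402 TPM. Below them came the fibroblast proteoglycan genes Ogn, at 2607 ± 642 TPM, and Dcn. Scn7a, which encodes a sodium-sensing channel of non-myelinating Schwann cells, stood at 2563 ± 958 TPM. Also among the 25 highest were the actin-severing gelsolin gene Gsn (2258 ± 634 TPM), the secreted phosphoprotein gene Spp1 (2078 ± 440.3 TPM), the glial calcium-binding protein gene S100b (1969.8 ± 575 TPM) and the potassium channel gene Kcna1 (2919.6 ± 629 TPM). The lipid enzyme gene Scd2 and the apolipoprotein E gene Apoe belonged to the same group, at 2845 ± 299 and 1964 ± 164 TPM. The remaining members were genes that most cells use, such as Eef1a1, Actb, B2m, Fth1, Tmsb4x, Vim and Tuba1a, and the synuclein gene Sncg. Length matters for this order. By CPM the giant scaffold gene Ahnak was 3rd at 13356 ± 3579 CPM, yet it was 11th among coding genes by TPM, and of the 100 highest genes by TPM only 49 were among the 100 highest by CPM. Over all genes, short non-coding RNAs of the RNA processing machinery, Rpph1 and Rmrp, lay above Pmp22 on the TPM scale, and small RNA genes took 7.58 to 19.9% of TPM per library. The precursor ribosomal RNA gene Rn45s took 0.712 to 4.07% of the counts.

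**Figure D1:**
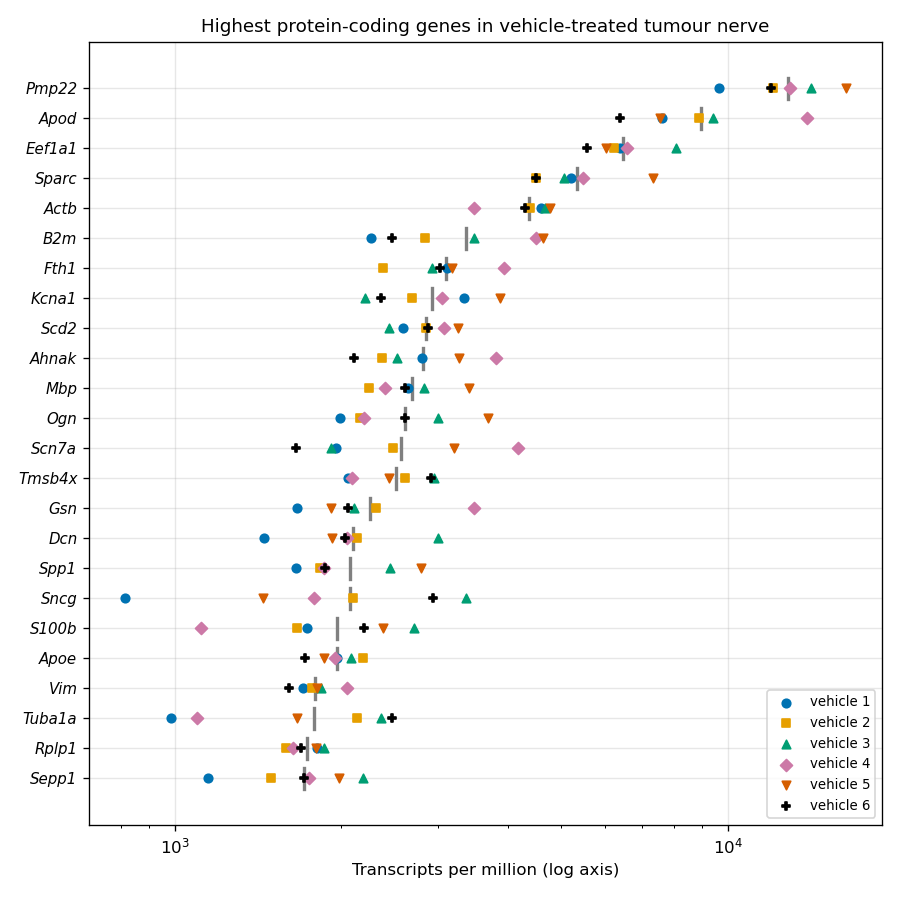
Length-scaled level (TPM, log axis) of 24 of the 25 highest protein-coding genes, with a point for each of the 6 vehicle libraries and a grey bar at the mean. Pmp22 is highest, with all 6 points between 9629 and 16354 TPM.

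Schwann cell genes were high in all 6 libraries. All 18 genes of the myelinating Schwann cell list reached 1 CPM in every library, against 52.8% of the table. Of them 0 were variable, against 7.16% of all genes, and their median SD was 0.33, against 0.29 for all genes. Vehicle 5 was highest for 11 of the 18, against 22% of all genes, and vehicle 3 lowest for 9, against 32.5% of all genes. Prx, which encodes the scaffold periaxin that organises myelin, stood at 1289 ± 193 TPM. The widest spread of the list lay in Pou3f1, a transcription factor gene of Schwann cells about to myelinate, and in the myelin junction gene Ncmap. Pou3f1 ran from 22.5 CPM in vehicle 3 to 62.1 CPM in vehicle 1, and Ncmap from 229.7 CPM in vehicle 1 to 618 CPM in vehicle 4. The 10 pan Schwann cell genes were detected throughout too. The small heat shock protein gene Cryab stood at 1528 ± 234 TPM, and Cdh19, a cadherin gene of the lineage, at 1215 ± 303 TPM. Cdh19 was highest in vehicle 4 and 5, at 1691 and 1639 CPM, and lowest in vehicle 3, at 837 CPM. Foxd3, a neural crest transcription factor gene, showed the widest spread of this list, with 25.7 CPM in vehicle 3 and 77.2 CPM in vehicle 4.

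Genes of Schwann cells that do not myelinate, or that have reverted to a repair state, had a lower median, 47.3 TPM against 464 TPM for the myelinating list. L1cam and Ncam1, which encode adhesion proteins of these cells, stood at 239 ± 44.9 and 218 ± 45.7 TPM, and the low-affinity neurotrophin receptor gene Ngfr at 109.7 ± 42.2 TPM. Of the 10 genes 2, Gfap and Olig1, were variable, against 7.16% of all genes. Gfap, an intermediate filament gene raised in glia after injury, measured 47, 11.1, 4.84, 12.8, 22.5 and 9.57 CPM in vehicle 1 to 6, and only vehicle 1 lay above 25 CPM. Olig1, a glial transcription factor gene, measured 2.96, 4.84, 8.01, 5.91, 0.306 and 9.11 CPM in the same order, and it was lowest in vehicle 5. Vehicle 1 and 5 were its 2 lowest libraries, as they were for Ngfr and for the neuron genes described below.

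Fibroblast genes reached high levels too. Lum, which encodes the proteoglycan lumican, averaged 1445 ± 904 TPM and measured 743, 749, 1637, 281, 926 and 576 CPM in vehicle 1 to 6. It was lowest in vehicle 4 and highest in vehicle 3. Pi16, a marker of adventitial fibroblasts, was low at 2.86 ± 1.24 TPM. None of the 12 list members was variable, against 7.16% of all genes. In bulk tissue, fewer cells of a type and less RNA per cell cannot be told apart. Perineurial genes were detected at modest levels. Slc2a1, the glucose transporter gene of the perineurial barrier, stood at 89 ± 26.9 TPM, the hedgehog receptor gene Ptch1 at 75.7 ± 10.8 TPM, the tight junction gene Cldn1 at 68.9 ± 26.4 TPM and Crabp2, a retinoic acid carrier gene, at 47.5 ± 11.4 TPM. Moxd1, another member, measured 3.66, 16, 15.5, 7.48, 10.9 and 25.8 CPM in vehicle 1 to 6. Vehicle 1 was the lowest library for 4 of 6 perineurial genes, where it was lowest for 22.9% of all genes, and the mean log2 CPM of the list was 4.27 there and 5.04 to 5.17 in the other 5.

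Endothelial genes were lower still, with a list median of 15.4 TPM over 12 genes. Of these 0 were variable, against 7.16% of all genes. Cldn5, the main tight junction gene of capillaries, stood at 40.5 ± 10.5 TPM, the endothelial cadherin gene Cdh5 at 30.2 ± 4.28 TPM and the clotting factor carrier gene Vwf at 16.9 ± 4.32 TPM. Cdh5 was even, at 30.8, 25.5, 29.4, 37.6, 30.1 and 26.3 CPM in vehicle 1 to 6. Robo4, a guidance receptor gene of vessels, was less so, from 3.88 CPM in vehicle 6 to 13.6 CPM in vehicle 1. Genes of pericytes and smooth muscle included Cspg4, the proteoglycan NG2, at 96.1 ± 10.2 TPM, Mcam at 323 ± 71.2 TPM, the pericyte marker Rgs5 at 83.6 ± 14.8 TPM and the PDGF receptor gene Pdgfrb at 82 ± 8.56 TPM. Cspg4 is also made by other cells of the nerve, so its level does not measure pericytes alone. Of 5 lymphatic endothelial genes only Lyve1, a hyaluronan receptor gene that macrophages share, at 35.9 ± 15.8 TPM, and the VEGF receptor gene Flt4, at 1.37 ± 0.456 TPM, had a mean of 1 CPM.

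**Figure D2:**
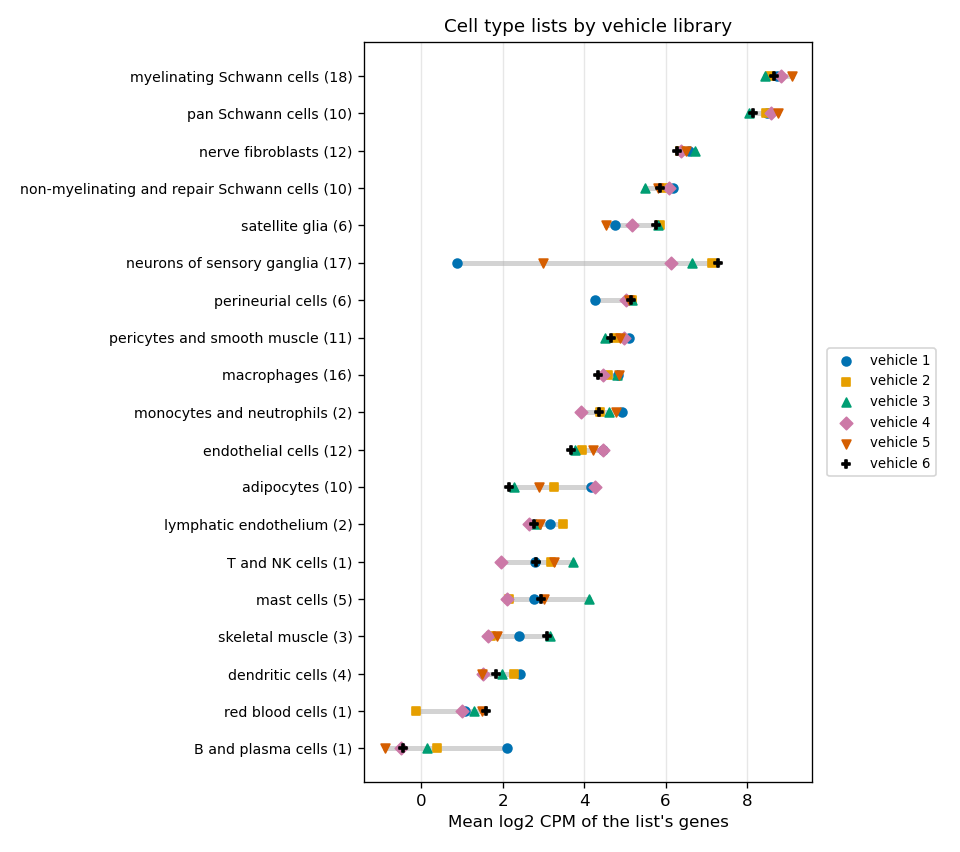
Mean log2 CPM of the genes of each cell type list, with a point for each vehicle library and, in brackets, the number of genes with a mean of at least 1 CPM. The points of Schwann cell, fibroblast and macrophage lists lie close together, whereas the sensory neuron list runs from 0.87 in vehicle 1 to 7.29 in vehicle 6.

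Among immune cells, macrophage genes were the clearest. All 16 were detected in all 6 libraries, against 52.8% of the table, and 0 were variable, against 7.16% of all genes. Lyz2, which encodes lysozyme, stood at 579 ± 104 TPM, and the complement genes C1qb, C1qa and C1qc at 237 ± 23.8, 223 ± 31.1 and 136 ± 13.9 TPM. C1qc had the smallest spread of the list, at 59.8, 69, 59.4, 58.3, 69 and 54.7 CPM in vehicle 1 to 6. Aif1, which encodes the macrophage protein IBA1, varied more, from 1.88 CPM in vehicle 2 to 8.27 CPM in vehicle 1. Ccr2, a chemokine receptor gene of recruited monocytes, stood at 26 ± 7.08 TPM and was lowest in vehicle 4, at 19.95 CPM against 38 to 53 CPM in the other 5. Genes of MHC class II presentation were detected in every library. Cd74, the invariant chain that guides class II molecules, stood at 331 ± 165 TPM and measured 136, 86.9, 210.1, 50.2, 121 and 169 CPM in vehicle 1 to 6. H2-Aa, a class II chain gene, measured 171, 169.98, 355, 72.8, 203 and 231 CPM and H2-Eb1, another, 85.8, 30.9, 86.8, 29.4, 36.1 and 106 CPM in the same order. Vehicle 4 was lowest for 6 of the 7 class II genes, where it was lowest for 14.8% of all genes.

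Mast cell granule genes were low on average and uneven. Mcpt4 and Cma1, which encode chymases, measured 8.1, 2.37, 18.9, 1.14, 7.84 and 5.02 CPM and 6.44, 2.93, 16.9, 1.73, 5.76 and 4.19 CPM in vehicle 1 to 6. The carboxypeptidase gene Cpa3 measured 6.53, 2.7, 16.2, 3.96, 8.39 and 4.55 CPM and the tryptase gene Tpsb2 6.88, 2.23, 12.5, 3.58, 9.86 and 4.6 CPM in the same order. All 4 were highest in vehicle 3, where they had 113, 101, 97 and 75 counts, and low in vehicle 2 and 4. Without vehicle 3 the SD of the list mean was 0.43, against 0.73 with it. Kit, the stem cell factor receptor of mast cells, did not follow them. It measured 5.83, 33.7, 23.4, 43.8, 8.33 and 52.4 CPM, low in vehicle 1 and 5, which is the order of the sensory neuron genes. Its ligand gene Kitl was even, at 148, 125, 125, 139, 191 and 100.5 CPM.

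Other blood cell genes were near the floor. Of 11 T and NK cell genes 1, the lectin receptor gene Klrb1c, had a mean of 1 CPM, at 8.19 ± 3.18 CPM. Of 6 B and plasma cell genes 1 did, the antibody joining chain gene Jchain, at 1.34 ± 1.42 CPM and 4.18 CPM in vehicle 1. The hemoglobin genes of the red blood cell list are listed at 0 in all 24 libraries, while the erythroid heme synthesis gene Alas2 averaged 2.11 ± 0.742 CPM, so the zeros do not measure blood in the nerve. None of 8 liver genes had a mean of 1 CPM. Of 12 skeletal muscle genes 3 did, and by length the highest, the actin-binding gene Actn3, reached 8.82 ± 5.17 TPM, with Ttn, the gene of the giant sarcomere protein titin, at 0.958 ± 0.372 TPM. Adipocyte genes were present unevenly, and the highest on that list by TPM, the desaturase gene Scd1, which other cells also use, stood at 1213 ± 112 TPM and 1695, 1373, 1136, 1516, 1559 and 1172 CPM.

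RNA of fibrillar collagen genes was high in these nerves, with a median of 246 TPM over the list. Col1a1 and Col1a2, the chains of type I collagen, stood at 1530.2 ± 609 and 673 ± 163 TPM, Col3a1 at 721 ± 313 TPM and Col5a2 at 306 ± 75.2 TPM. All 11 fibrillar collagen genes were detected in every library, against 52.8% of the table, and 1 was variable, against 7.16% of all genes. Col1a1 measured 3374, 1977, 3031, 833, 3188 and 1874 CPM in vehicle 1 to 6, lowest in vehicle 4. Col3a1 measured 1806, 1358, 2359.8, 721, 2628 and 1155 CPM in the same order, again lowest in vehicle 4. Col2a1, best known from cartilage, was the variable one, at 36.8, 32.7, 48.1, 5.64, 54.8 and 41 CPM. Among the other collagens Col15a1, a collagen of the zone around basement membranes, led at 582 ± 224 TPM, followed by the basement membrane genes Col4a1 at 403 ± 52.1 TPM and Col4a2 at 294 ± 51.6 TPM, with the microfibril gene Col6a1 at 360.5 ± 108 TPM between them. Col15a1 measured 1045, 810.3, 1063, 261, 1270.1 and 792 CPM and Col6a1 431, 369, 477, 209, 466 and 279.6 CPM in vehicle 1 to 6, both lowest in vehicle 4, whereas Col4a1, at 802, 628, 582, 769, 936 and 579 CPM, was not.

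No basement membrane gene reached the threshold for variable, which 7.16% of all genes did. Hspg2, the gene of the proteoglycan perlecan, stood at 889.7 ± 216 TPM, the linker gene Nid1 at 489 ± 108 TPM, and the laminin chain genes Lamc1 and Lamb1 at 442 ± 43.8 and 289 ± 32.7 TPM. Over the 15 members the median SD was 0.40 on the log2 scale, above the 0.29 of all genes, and members differed in which library was lowest. Lamc1 measured 892, 881, 818, 798, 1078 and 727 CPM in vehicle 1 to 6. Small proteoglycans were led by Ogn and Dcn, then Lum and Bgn, the last at 217 ± 33.7 TPM. The brain-type proteoglycan genes Bcan and Ncan were low, at 7.59 ± 4.49 and 2.82 ± 1.38 TPM, and lowest in vehicle 5. The microfibril genes of elastic fibres were well expressed: Fbn1, which encodes fibrillin, stood at 172 ± 54 TPM, Mfap5 at 199.99 ± 55.2 TPM and the fibulin genes Efemp1 and Fbln5 at 272 ± 57.5 and 109.9 ± 22.3 TPM. Ltbp2 and Fbln1 were the variable members, both lowest in vehicle 1, at 1.31 CPM against 8.07 to 12.5 CPM for Ltbp2 and 1.13 CPM against 4.34 to 10.3 CPM for Fbln1.

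Postn, which encodes the matricellular protein periostin and whose promoter drives Cre here (chr3:54361109-54391037), stood at 415 ± 213 TPM. It measured 991, 1028, 848, 306, 1629 and 391 CPM in vehicle 1 to 6, lowest in vehicle 4 and highest in vehicle 5. Its SD of 0.92 was the second largest of 15 matricellular genes. Ctgf, a target of YAP and TGF-beta that promotes fibrosis, had the largest, 1.07, at 24, 17.5, 8.35, 78.2, 14.8 and 22.4 CPM, and was highest in vehicle 4. Fn1, the fibronectin gene, measured 1997, 1686, 2023, 851, 1788 and 1412 CPM and was lowest in vehicle 4. Sparc, Spp1 and Sparcl1 were more even, with SDs of 0.35, 0.31 and 0.26. Of the genes that fold and crosslink collagen, Serpinh1, the collagen chaperone gene, measured 322, 369, 377, 125, 627 and 309.6 CPM, lowest in vehicle 4 and highest in vehicle 5. The crosslinking enzyme gene Lox did not follow, at 505, 384, 312, 1058, 654 and 480.1 CPM, and it was highest in vehicle 4. Among proteases and their inhibitors, the metalloprotease inhibitor genes Timp3 and Timp2 stood at 967 ± 196 and 761 ± 85 TPM, the gelatinase gene Mmp2 at 586 ± 203 TPM and the membrane protease gene Mmp15 at 142 ± 38.7 TPM. Mmp9, the other gelatinase gene, was low at 1.94 ± 1.25 TPM and variable, at 2.09, 1.37, 2.67, 0.163, 0.858 and 2.33 CPM.

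Growth factor genes spanned a wide range of levels. Of the PDGF ligands Pdgfa was highest, at 105 ± 16.5 TPM, with its receptors Pdgfra at 103 ± 21.9 and Pdgfrb at 82 ± 8.56 TPM. Pdgfb and Pdgfc stood at 15.2 ± 6.77 and 17.3 ± 9.74 TPM, and Pdgfc measured 18.6, 19.5, 10.5, 44.1, 15 and 17.6 CPM, highest in vehicle 4. Vegfa was modest at 13.2 ± 2.89 TPM and Angpt2, which loosens vessels through the receptor TIE2, stood at 84.6 ± 24.4 TPM, against 15.7 ± 3.77 TPM for that receptor's gene Tek. The semaphorin and VEGF co-receptor gene Nrp2 was among the steadiest receptors, at 161, 147, 140.4, 167, 163 and 162 CPM.

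The ErbB family signals from axons and neighbouring cells to Schwann cells. Erbb3, the neuregulin receptor that Schwann cells depend on, stood at 333 ± 63.3 TPM, Erbb2, its signalling partner, at 60.2 ± 16 TPM, the EGF receptor gene Egfr at 35 ± 8.39 TPM and Erbb4 at 8.18 ± 1.72 TPM. Hbegf, an EGF receptor ligand gene, led the ligands at 82 ± 21.5 TPM, then Tgfa at 39.8 ± 5.62 and Btc at 36.9 ± 18.9 TPM. Nrg1, which encodes the neuregulin that axons present, was variable, at 6.7, 41.9, 29.9, 27.3, 8.39 and 43.3 CPM in vehicle 1 to 6. Nrg3 was too, at 1.57, 13, 7.01, 4.93, 0.306 and 12.7 CPM. Both were low in vehicle 1 and 5, like the neuron genes described below, whereas Erbb3, at 595, 463, 304, 575, 553 and 374 CPM, was not.

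In the FGF, HGF and IGF families Fgf1 led, at 383 ± 91.4 TPM and 389, 441, 563, 426, 489.6 and 619 CPM, with the receptor gene Fgfr1 at 80.4 ± 10.3 TPM. Igf1 stood at 37.4 ± 15.3 TPM and measured 111, 98.2, 119.8, 30.7, 103 and 60.6 CPM, lowest in vehicle 4, while its receptor gene Igf1r, at 190.04, 164, 130.3, 307, 182 and 194 CPM, was highest there. Hgf was low and variable, at 2.79 ± 1.78 TPM, beside its receptor gene Met at 36.3 ± 14.9 TPM. Axl, a receptor that binds GAS6, stood at 362 ± 84.1 TPM and the ligand gene Gas6 at 85.5 ± 19 TPM. Mertk, a related engulfment receptor gene, measured 104, 131, 67.9, 268, 121 and 126 CPM and was highest in vehicle 4.

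Neurotrophic receptors had a median of 64.9 TPM and their ligands one of 7.63 TPM. Lifr, the LIF receptor gene, stood at 189 ± 82.6 TPM and Gfra1, which binds GDNF, at 172 ± 25 TPM, while Lif and Gdnf stood at 10.1 ± 2.01 and 3.16 ± 1.59 TPM. Gfra1 was even, at 207, 214, 241, 191, 234 and 241 CPM. The GDNF co-receptor kinase gene Ret was not, at 14.2, 158, 87.6, 64.7, 38.7 and 195 CPM, and neither was the ligand gene Bdnf, at 0.522, 18.4, 13.9, 7.21, 0.184 and 15.6 CPM. Both were low in vehicle 1 and 5, like the neuron genes. In the TGF-beta and BMP families Bmp7 led the ligands at 98.9 ± 17.1 TPM with Tgfb3 and Tgfb1 at 46.2 ± 10.8 and 26.8 ± 5.15 TPM. The receptor genes were higher: Tgfbr3 stood at 232 ± 29.1 TPM, Bmpr1a at 186 ± 23.9 TPM, Bmpr2 at 182 ± 37.5 TPM and Tgfbr2 at 152 ± 30.1 TPM, and the list mean had an SD of 0.10. Ligands of the CSF1 receptor were Il34 at 155 ± 33.7 TPM and Csf1 at 33.8 ± 6.94 TPM, and Il34 exceeded Csf1 in TPM in all 6 libraries. Among chemokines Ccl11, which attracts eosinophils, led at 803 ± 233 TPM with 202, 159, 289, 162, 212 and 193 CPM, and the monocyte attractant genes Ccl2 and Ccl7 measured 25.6, 8.7, 20.2, 6.13, 29.5 and 9.42 CPM and 12, 5.12, 15, 2.66, 15.4 and 5.79 CPM, high in vehicle 1, 3 and 5 and low in vehicle 2, 4 and 6.

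Nf1 was measured at 356 ± 52.5 CPM and 94.8 ± 10.6 TPM (chr11:79339693-79581612). Its values were 386, 328, 271, 423, 373 and 353 CPM in vehicle 1 to 6. Gene-level counts from mixed cells do not show the deletion, and genes lying within Nf1 on the other strand cannot be separated from it unless counting used strand, which is not given. Among RAS GTPase-activating genes it was second by TPM: Rasal2 stood at 183 ± 22.4, Rasa3 at 89.2 ± 13.7, Rasa1 at 64.2 ± 8.07, Dab2ip at 61.2 ± 6.02 and Rasa2 at 27 ± 3.26 TPM. Of the RAS genes Mras was highest, at 253 ± 29 TPM, and Rras stood at 128 ± 12.4, Nras at 104 ± 8.9 and Hras at 28.4 ± 4.09 TPM. The exchange factor genes Sos1 and Sos2 stood at 60.9 ± 13.6 and 57.5 ± 8.36 TPM. Rasgrp1, an exchange factor gene of neurons and lymphocytes, was variable, at 7.49, 72.4, 60.9, 42, 10.9 and 89.5 CPM, in the neuron order, and so was Rasgrf1, at 4.88, 6.77, 5.01, 4.99, 0.123 and 8.74 CPM.

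The kinases below RAS had even levels, with a median SD of 0.19 over 9, against 0.29 for all genes. Mapk3, which encodes ERK1, stood at 589.9 ± 72.1 TPM. Of the MEK genes Map2k1 stood at 73.4 ± 12.8 and Map2k2 at 22.1 ± 2.57 TPM, and of the RAF genes Braf at 66 ± 6.93 and Araf at 48.2 ± 6.26 TPM. Mapk3 measured 295, 329, 251, 314, 340.04 and 355 CPM in vehicle 1 to 6. The exception was the scaffold gene Ksr2, at 2.96, 6.42, 3.67, 3.69, 0.674 and 8.38 CPM. Genes that ERK induces, and that in part restrain it, were expressed: the phosphatase gene Dusp6 stood at 291 ± 30.7 TPM, the RAF inhibitor gene Spred1 at 215 ± 20.5 TPM and the receptor signalling inhibitor gene Spry2 at 106 ± 13.1 TPM. Dusp6 measured 244, 189.5, 191, 256, 231 and 182 CPM. Of the 15 genes with a mean of 1 CPM, 0 were variable, against 7.16% of all genes. Of the same 15, 8 were highest in vehicle 1, where 20.4% of all genes were. Phlda1, another ERK-induced gene, ran from 15.5 CPM in vehicle 4 to 56.8 CPM in vehicle 1. Immediate early genes, which also answer to handling of tissue, were present at 176 ± 58 TPM for Nr4a1, 144 ± 35.7 for Egr1, 129 ± 22.9 for Jun and 105 ± 35 for Fos, and Fosb had the widest spread of them, at 10.01, 3.14, 8.68, 17.9, 12.8 and 3.88 CPM.

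Ccnd1, which encodes cyclin D1, the partner of CDK4 and CDK6 whose transcription ERK raises, stood at 314 ± 157 TPM and measured 687, 379, 277, 137, 459 and 199 CPM in vehicle 1 to 6, highest in vehicle 1 and lowest in vehicle 4. Ccnd2, a second D cyclin, measured 200.4, 137, 186, 53.4, 202 and 113 CPM, lowest in vehicle 4 as well. The partner kinase gene Cdk4 was even, at 52.8, 53.5, 51.4, 40.7, 58 and 46.1 CPM, and Cdk6 was not, at 64.8, 29.6, 43.1, 22.2, 62.6 and 27.4 CPM. The CDK inhibitor genes Cdkn1b and Cdkn1a stood at 188 ± 35.5 and 165 ± 42 TPM and the retinoblastoma gene Rb1 at 84.8 ± 9.34 TPM. Proliferation genes were low. Their median was 3.001 TPM over 15 genes with a mean of 1 CPM. Pcna, the replication clamp gene, was highest at 45.5 ± 9.04 TPM. Mki67, the usual marker of dividing cells, stood at 5.95 ± 3.05 TPM and measured 21.2, 14.4, 19, 3.2, 20.3 and 7.09 CPM in vehicle 1 to 6, lowest in vehicle 4. Vehicle 4 was lowest for 8 of the 15, against 14.8% of all genes. Of the 15, 3 were variable, namely Mki67, the mitotic cyclin gene Ccnb1 and 1 other, against 7.16% of all genes. Ccnb1 had 0 counts in vehicle 4, the floor there being 0.163 CPM. In the Hippo pathway Wwtr1, which encodes TAZ, stood at 301 ± 51.6 TPM, Tead1 at 129 ± 26.5 TPM and Yap1 at 81.1 ± 14.7 TPM. In the PI3K pathway Pik3r1, which encodes a regulatory subunit of the kinase, stood at 380.1 ± 43.1 TPM. None of the 14 genes of that list was variable, against 7.16% of all genes.

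Of the 14167 genes with a mean of 1 CPM, 1014 (7.16%) were variable between these libraries, 228 had an SD of at least 2 and 22 an SD of at least 3. The largest spread that was not sex-linked was that of Scn10a, a sodium channel gene of pain-sensing neurons, at 0.348, 277, 116, 139, 10.1 and 374 CPM in vehicle 1 to 6. Calca, which encodes the neuropeptide CGRP, measured 0.261, 146, 139, 56.3, 4.04 and 152 CPM in the same order. Nefl and Nefh, which encode neurofilament chains, measured 1.83, 669, 443, 252, 31.4 and 547 CPM and 1.22, 467, 304, 221, 24.4 and 389 CPM. Vehicle 1 and 5 were the lowest libraries for all of them. Of the 30 genes with the largest spread, 5 were sex-linked, 2 were Trim12a and Gbp2b, and the other 23 were lowest in vehicle 1. These include Calcb, a second CGRP gene, the ion channel genes Scn11a, P2rx3, Trpa1 and Htr3a, the itch receptor genes Mrgprd and Mrgprx1, the TRP channel regulator gene Pirt, the neuropeptide gene Tac1 and the nociceptor transcription factor gene Prdm12. All 17 genes of the sensory neuron list were variable and all 17 were lowest in vehicle 1, where 22.9% of all genes were. Even the broad neuronal genes Tubb3, at 9.84, 371, 258, 170.3, 24.6 and 352 CPM, and Uchl1, at 19.8, 174, 145, 90.7, 33.3 and 238 CPM, kept this order. Cell bodies of these neurons lie in ganglia and not in the nerve trunk, so the satellite glia that surround them there were measured beside them. Their list of 6 genes had a mean log2 CPM of 4.76 in vehicle 1 and 4.54 in vehicle 5, and of 5.17 to 5.86 in the other 4. Summed CPM did not separate them so, at 658 in vehicle 1, 571 in vehicle 5 and 585 to 802 in the other 4. Vehicle 1 and 5 were the 2 lowest libraries for 3 of the 6 genes, against 14.5% of all genes. The potassium channel gene Kcnj3 measured 1.39, 11.4, 8.85, 3.58, 0.306 and 13.1 CPM in vehicle 1 to 6, and the glutamine synthetase gene Glul 191, 280.1, 221, 441, 174 and 305 CPM, both lowest in vehicle 1 and 5. Fabp7, a fatty acid carrier gene of these glia, measured 8.01, 43.3, 96.6, 10.1, 15.3 and 51.9 CPM and was low in vehicle 4 as well, while Kcnj10, at 417, 416, 202, 217, 341 and 218 CPM, was highest in vehicle 1. The part of ganglion tissue in this spread was not tested.

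**Figure D3:**
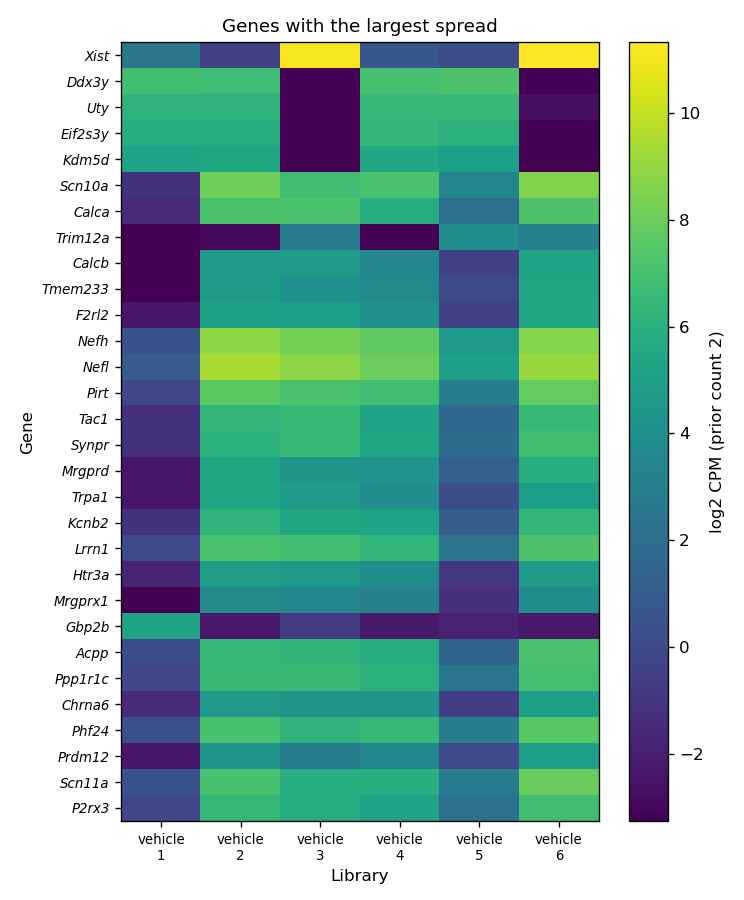
Log2 CPM (prior count of 2) of the 30 genes with the largest SD between the 6 vehicle libraries, ordered by SD from the top. Below the sex-linked rows most genes are dark in vehicle 1 and 5, as Scn10a is with 0.348 and 10.1 CPM there, and bright in the other 4.

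The same 2 libraries were lowest for most variable genes. Of the 1014 variable genes 778 (76.7%) had vehicle 1 and 5 as their 2 lowest libraries, against 14.5% of all genes. Another 11 (1.08%) had them as their 2 highest, against 17% of all genes, so over all genes vehicle 1 and 5 were the highest pair slightly more often than the lowest. The first principal component held 64.2% of the variance, with vehicle 1 and 5 at -74.0 and -66.6 and the other 4 between 12.4 and 52.3. Without vehicle 1 and 5, 309 genes were variable (2.17% of those with a mean of 1 CPM over the remaining 4), and 184 of these were among the 1014, which is 18.1% of the larger list and 59.5% of the smaller. Of the 17 sensory neuron genes 0 were variable among those 4. Libraries of the drug groups offer the same measure in samples that did not enter it. The 100 genes with the largest spread in vehicle had a median SD of 3.21 in CDKi and 2.59 in the combination, against 0.27 and 0.31 for all genes, but 0.67 in ERKi, against 0.29 for all genes. Of the 100, 99 had an SD of at least 1 in CDKi, 100 in the combination and 14 in ERKi. In those groups 7.52, 9.01 and 2.00% of all genes did.

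Vehicle 4 was often lowest for matrix genes and highest for hormone-responsive genes. It was lowest for 8 of 11 fibrillar collagen genes, for 10 of 18 other collagens and for 9 of 15 matricellular genes, against 14.8% of all genes. It was highest for 9 of 12 genes that glucocorticoids induce, against 19.5% of all genes. Tsc22d3, which encodes the glucocorticoid-induced leucine zipper protein, measured 109, 286, 163, 757, 193 and 384 CPM in vehicle 1 to 6. Klf9, a transcription factor gene induced by the hormone, measured 203, 261, 166, 555, 210.1 and 266 CPM, and the metal-binding metallothionein genes Mt1 and Mt2 measured 112, 239, 139, 492, 204 and 210.4 CPM and 43.9, 176, 51.2, 274, 80.4 and 141 CPM. The receptor chaperone gene Fkbp5, at 26.8, 101, 24, 109, 25.3 and 70.9 CPM, was high in vehicle 2, 4 and 6 alike, and so was Zbtb16, at 16.3, 64.3, 23.4, 77.8, 18.6 and 79 CPM. Without vehicle 4 the SD of the glucocorticoid list mean was 0.38, against 0.62 with it. It was also highest for 7 of 12 immediate early genes. Adipocyte genes were high in both vehicle 4 and vehicle 1. The 10 adipocyte genes had a mean log2 CPM of 4.26 in vehicle 4 and 4.17 in vehicle 1, and of 2.15 to 3.26 in the other 4. Fabp4, a fatty acid carrier gene of fat cells, measured 50.8, 11.4, 2.34, 58.7, 9.56 and 3.73 CPM, and Cidec, a lipid droplet gene, 7.4, 1.63, 1.34, 6.89, 1.47 and 0.31 CPM. Cfd, which encodes adipsin, measured 19.5, 10.7, 3.17, 22.1, 8.94 and 1.5 CPM, and the lipase gene Pnpla2, at 50.6, 41.8, 28.7, 118, 43 and 38.6 CPM, was high in vehicle 4 only. Vehicle 1 shared the high adipocyte genes, while its fibrillar collagen list had a mean log2 CPM of 8.46, against 7.32 in vehicle 4. The part of fat tissue or of the hormone in the vehicle 4 values was not tested.

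**Figure D4:**
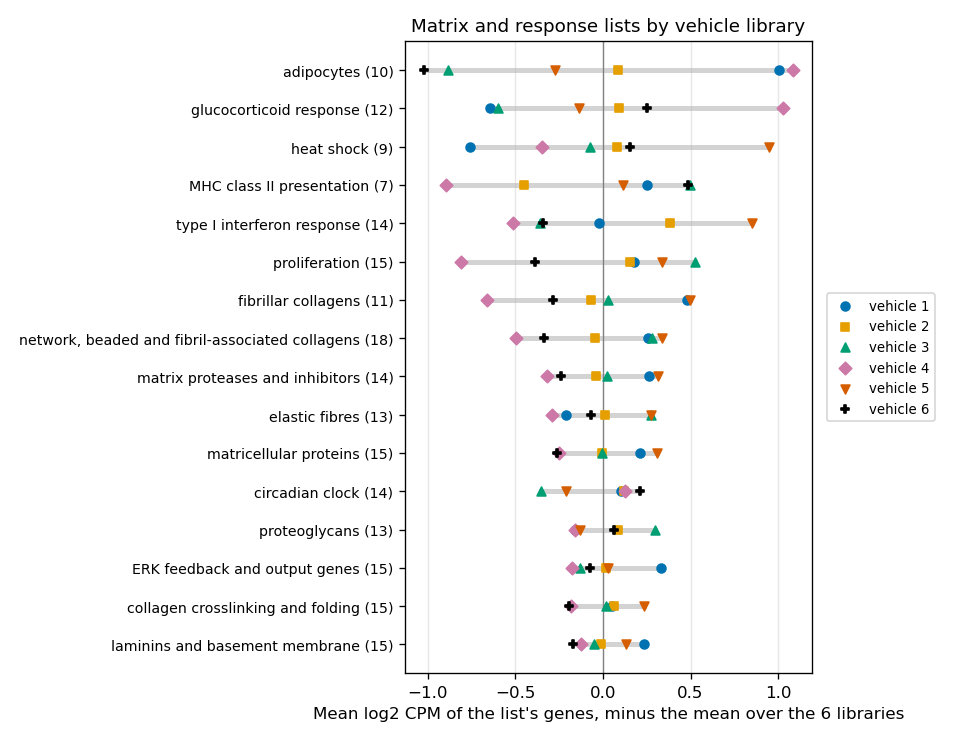
Mean log2 CPM of matrix, response, adipocyte, proliferation and ERK output lists in each vehicle library, relative to the list's mean over the 6 libraries, ordered by spread from the top. Vehicle 4 lies at the right end for glucocorticoid genes and at the left end for fibrillar collagens and proliferation, and vehicle 5 at the right end for heat shock and interferon genes.

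Vehicle 5 was highest in 2 response lists. It was highest for 12 of 14 genes of the type I interferon response, against 22% of all genes. Ifit1, which encodes an antiviral protein that binds foreign RNA, measured 18, 37.6, 18.9, 15.2, 58.7 and 19.6 CPM in vehicle 1 to 6. Ifit3, a partner of the same family, measured 48.5, 56.8, 33.7, 35.7, 85.1 and 30.7 CPM. Mx1 and Oas2 had the widest spread of the list and were low, at 1.2 ± 0.849 and 1.72 ± 0.908 CPM. The heat shock list was the other, with vehicle 5 highest for 6 of 9 genes. The stress-inducible chaperone genes Hspa1b and Hspa1a measured 6.7, 10.9, 8.01, 9.33, 74.4 and 9.47 CPM and 5.66, 5.002, 4.67, 13.1, 44.8 and 8.17 CPM, highest in vehicle 5. These copies are near identical, so reads may be split between them uncertainly. Constitutive chaperone genes followed another order: Hspa8 measured 348, 769, 687, 499, 757 and 797 CPM and Hsp90aa1 175, 645, 894, 318, 446 and 692 CPM, both lowest in vehicle 1 and neither highest in vehicle 5. Without vehicle 5 the SD of the heat shock list mean was 0.35, against 0.57 with it.

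The promoters of Ifit1 and Ifit3 are shown because both genes were highest in vehicle 5. Each line gives 250 bases before the RefSeq start on GRCm38.p6, 5′ to 3′ on the gene's strand, in lower case, with capitals for matches to the interferon-stimulated response element, searched as a pair of GAAA units with 2 bases of any kind between them, on both strands. The windows are chr19:34640639-34640888 and chr19:34583279-34583528, both on the plus strand.
Ifit1: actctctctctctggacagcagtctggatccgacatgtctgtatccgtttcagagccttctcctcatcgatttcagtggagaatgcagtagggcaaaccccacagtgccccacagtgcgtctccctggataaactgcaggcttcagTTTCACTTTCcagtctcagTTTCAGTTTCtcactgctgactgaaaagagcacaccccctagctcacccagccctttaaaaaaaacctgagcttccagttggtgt
Ifit3: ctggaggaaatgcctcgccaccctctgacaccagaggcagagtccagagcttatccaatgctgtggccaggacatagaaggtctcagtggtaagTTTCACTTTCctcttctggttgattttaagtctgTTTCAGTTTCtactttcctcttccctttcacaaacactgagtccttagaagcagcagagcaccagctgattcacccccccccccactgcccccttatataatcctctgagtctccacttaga
Both windows held 2 matches. Of the 14 listed genes 10 had a promoter in the RefSeq table and 6 of these held a match, against 3.46% of 27025 genes with a window of the same length. Where a gene had several starts, a match before any of them counted. The heat shock element was searched as GAA, TTC and GAA in a row with 2 bases of any kind between units, on both strands. It was in 2 of 7 heat shock promoters, against 0.514% of all genes. These were Hspe1 and Hspd1, which encode the mitochondrial chaperonins and start back to back. Their windows overlap, and both hold the same stretch, read on opposite strands. The 2 promoters are therefore not separate cases. Hspd1 measured 65, 93.8, 93.5, 58.4, 111 and 83 CPM and Hspe1 25.6, 37.9, 51.6, 26.5, 48.6 and 37.5 CPM in vehicle 1 to 6. The Hspe1 window lies at chr1:55087898-55088147 on the plus strand, and its capitals mark 2 overlapping matches.
Hspe1: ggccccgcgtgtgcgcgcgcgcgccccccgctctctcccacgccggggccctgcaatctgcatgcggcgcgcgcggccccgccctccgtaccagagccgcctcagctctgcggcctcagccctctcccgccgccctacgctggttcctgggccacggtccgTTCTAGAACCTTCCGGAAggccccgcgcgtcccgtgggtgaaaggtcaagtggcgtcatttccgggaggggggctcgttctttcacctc
The windows of Hspa1a and Hspa1b held no match of these letters.

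Genes of the circadian clock differed between libraries. Arntl, which encodes the activator BMAL1, measured 26.5, 5.47, 24.5, 27.1, 59.4 and 8.54 CPM in vehicle 1 to 6, highest in vehicle 5 and lowest in vehicle 2. Ciart, a repressor gene of the clock, measured 2.44, 6.4, 2.003, 1.03, 1.1 and 4.92 CPM, highest in vehicle 2 and 6, where Arntl was lowest. Per1, a repressor gene that also answers to glucocorticoids, measured 132, 143, 64.6, 277, 114 and 179 CPM and was highest in vehicle 4. Nr1d1, which encodes the nuclear receptor REV-ERB alpha that represses Arntl, measured 195, 201, 103, 119, 102 and 182 CPM. The time of day at which nerves were taken is not stated in the labels, and its part in this spread was not tested. The Ciart window, on the minus strand at chr3:95882229-95882478, is shown for its matches to the E-box, CACGTG, the site of the clock activators, in capitals.
Ciart: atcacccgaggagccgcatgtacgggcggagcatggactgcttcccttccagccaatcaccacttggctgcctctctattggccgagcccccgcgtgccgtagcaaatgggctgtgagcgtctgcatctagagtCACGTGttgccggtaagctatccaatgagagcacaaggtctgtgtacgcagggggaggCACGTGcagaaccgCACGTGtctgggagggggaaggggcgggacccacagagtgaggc
It held 3 matches. Among 13 clock promoters, 4 held at least 1, against 6.86% of all genes.

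Some genes were on in some libraries and off in others. In all, 107 genes with a mean of 1 CPM had 3 counts or fewer in a library and at least 5 CPM in another. Of these 88 had vehicle 1 and 5 as the lowest libraries and 4 were Y-linked. Xist, the RNA that silences an X chromosome in females, measured 5.66, 0.605, 2220.3, 1.57, 1.04 and 2557 CPM in vehicle 1 to 6, and the Y-linked Ddx3y 121, 111, 0, 129, 149.5 and 0 CPM. Xist was high only in vehicle 3 and 6, the libraries without Ddx3y counts, which marks these as female and the others as male. The remaining 15 were led by Trim12a, at 0, 0.0233, 7.01, 0, 16 and 9.16 CPM, and Gbp2b, at 38.6, 0.0931, 0.501, 0.108, 0.184 and 0.103 CPM. Trim12a (chr7:104299894-104315466), a member of the antiviral TRIM family, was on in vehicle 3, 5 and 6. Trim30d (chr7:104470014-104507849), a relative on the same chromosome, was on in the same 3 libraries, at 0.174, 0.14, 4.17, 0, 5.21 and 4.04 CPM, and was named after its values were seen. In the 18 other libraries, both were at 1 CPM or more in 13 and both below it in the other 5. Gbp2b (chr3:142594847-142619179), which encodes an interferon-induced GTPase, was on in vehicle 1 only among these 6 but in 13 of the 18 others. These genes have close paralogs next to them, and how the authors' counting assigned such reads is not given. The part of read assignment, or of strain, in this on and off pattern was not tested.

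**Figure D5:**
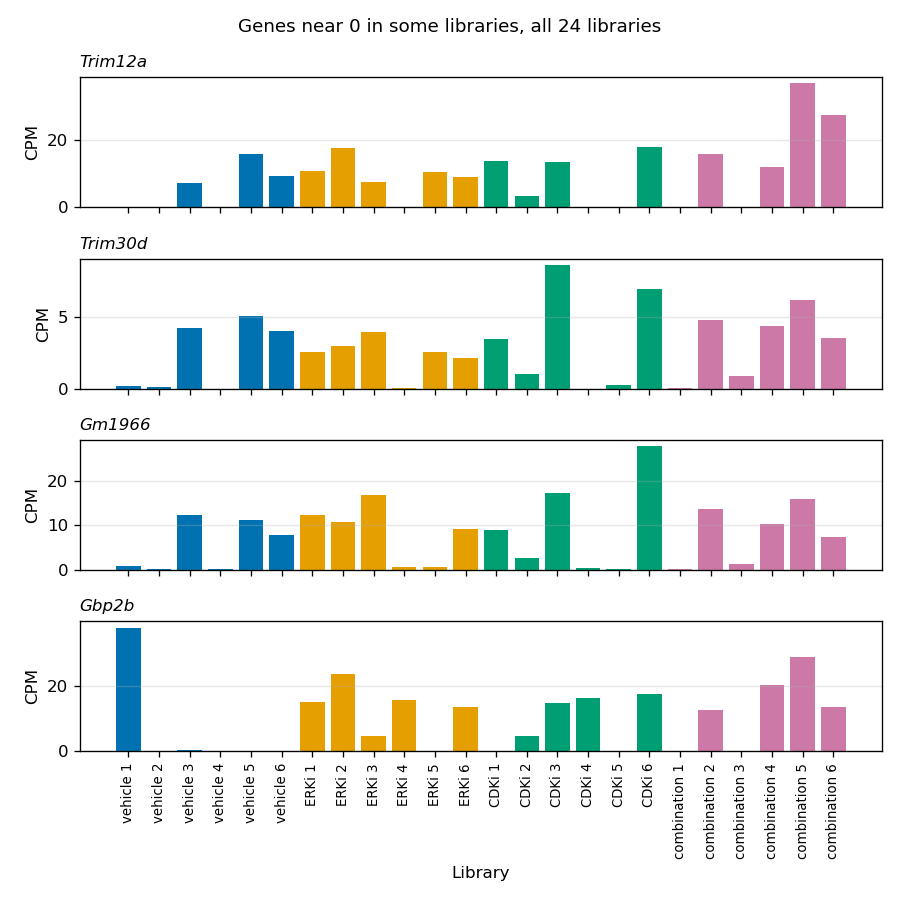
CPM (TMM-scaled over all 24 libraries) of Trim12a, Trim30d, Gm1966 (a pseudogene further along the same chromosome) and Gbp2b in each library, with a bar per library and a colour per group. The first 3 panels are high in the same libraries apart from single exceptions, and Gbp2b reaches 38 CPM in vehicle 1 and at most 0.512 CPM in the other 5 vehicle libraries.

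Counts were also spread over genes that nerve is not known to use. Olfactory receptor genes had a count in 362, 125, 638, 95, 65 and 40 of 1125 genes in vehicle 1 to 6, with sums of 72.7, 26.1, 240, 43.4, 25.9 and 25.7 CPM. With every library thinned to the depth of vehicle 3 the numbers were 225, 43, 638, 40, 22 and 20. The shallowest library thus held the most, and vehicle 1 came second. These gene families were chosen after their values were seen. Of the 15 on-and-off genes outside the neuron order and the Y chromosome, 8 were highest in vehicle 3, where 14% of all genes were. The part of this scatter in values near the floor of vehicle 3 was not tested. Neither was its part in the mast cell genes, whose counts there lay well above that floor.

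At the other end, some genes hardly moved. Among the 4274 genes with a mean of at least 50 CPM, Rnf20, which encodes a ubiquitin ligase for histones, had the smallest spread, at 59.3, 58.6, 57.9, 57.4, 57.1 and 59 CPM in vehicle 1 to 6. Fbxw8, a ubiquitin ligase adaptor gene, measured 53.7, 53, 51.4, 53, 55.4 and 54.1 CPM and Ktn1, the gene of the kinesin receptor kinectin, 148, 150.3, 148, 148, 159 and 149 CPM. Psap, which encodes the lysosomal saposin precursor, was the highest of the 12 steadiest, at 654, 717, 681, 668, 699 and 684 CPM. The others were Rhoq, Scaper, Capzb, Rbsn, Rspry1, Specc1l, Anapc5 and Tardbp, with SDs of up to 0.06. None of these is a marker of one cell type of the nerve.

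Whether single genes varied more than others of their level was tested with edgeR's quasi-dispersion against its fitted prior. At an adjusted p under 0.05, 0 of 14167 genes did, the smallest adjusted p being 0.194, while 1020 (7.20%) had an unadjusted p under 0.05. Limma-trend called 0 as well, with 1003 at an unadjusted p under 0.05, and DESeq2 marked 319 genes as dispersion outliers, 289 of them with vehicle 1 and 5 lowest. The common biological coefficient of variation was 32.9%, and the prior had 3.67 degrees of freedom. With 5 degrees of freedom per gene, a wide spread such as that of Scn10a (adjusted p = 0.194 by edgeR with Benjamini-Hochberg adjustment) did not pass.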

How the data were processed

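RNA of sciatic nerve was measured by RNA-seq in 24 libraries, of which the 6 vehicle libraries were analysed. Per the labels' protocols, RNA was depleted of ribosomal RNA before library making, while the molecule label names polyA RNA, and which applies was not settled. The authors deposited raw counts per gene. FastQC, STAR, DESeq2 and mm10 are named in the submitters' processing notes, and which counter, annotation and strand setting were used is not given in the sources used here.

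Counts were scaled by TMM in edgeR 4.0.16 (R 4.3.3) and log2 CPM took a prior count of 2. TPM used exon-union lengths from a GENCODE annotation of GRCm38, matched by symbol for 24027 of 24421 genes. Spread was tested with edgeR's quasi-likelihood dispersions, with limma 3.58.1 and DESeq2 1.42.0 as alternatives. The spread test was also run on simulated data. Those data gave all genes the same dispersion, unlike these libraries, so that run does not show what the test can call here. Promoters came from RefSeq on GRCm38.p6. Expression levels were not compared between treatments.

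The members and gene lists were chosen with earlier results of these data known. Named genes were, per list, up to 4 with the highest TPM and 2 with the largest SD, the 25 highest genes, the 30 with the largest SD and the 12 with the smallest SD at a mean of 50 CPM, the receptor and ligand pairs of growth factor lists and all RAS, RAF, MEK, ERK and RAS GTPase-activating genes. Some genes that meet the rule are not reported here. Other genes named, among them Yap1, Cdk4, Cdk6 and Trim30d, were chosen after their values were seen. No pair of libraries agreed within sampling noise (chi-square of at least 22.3 per degree of freedom).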

Additional observations from a re-analysis of the deposited data

Results flagged for a closer look

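Values were flagged where 1 library lay farther from the nearest of the others than Dixon's 95% critical value for 6 samples allows, as a share of the range of log2 CPM. Chance flags about 1 in 20 groups. Over all 14167 genes 835 (5.89%) were flagged, and of 280 named genes 18 were, so the flags among named genes are few more than in the whole table. Among 54 lists 2 were flagged, the perineurial list with vehicle 1 apart (0.854) and the red blood cell list, which rests on Alas2 alone, with vehicle 2 apart (0.658).

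Vehicle 4 stood apart for the collagen genes Col15a1 (0.701) and Col2a1 (0.772), the gelsolin gene Gsn (0.690), the monocyte receptor gene Ccr2 (0.658) and the antiviral enzyme gene Oas2 (0.647). Vehicle 5 stood apart for the chaperone gene Hspa1b (0.801), the exchange factor gene Rasgrf1 (0.843), the growth factor gene Vegfa (0.678), the proteoglycan gene Ncan (0.627), the glial gene Olig1 (0.646) and Ktn1 (0.746), whose whole range was small. Vehicle 1 stood apart for the microfibril gene Ltbp2 (0.802), the GTPase gene Gbp2b (0.788) and the perineurial transporter gene Slc6a13 (0.644). Vehicle 3 stood apart for the adhesion gene L1cam (0.744), vehicle 6 for Mcam (0.646) and the endosome gene Rbsn (0.725), and vehicle 2 for the heme synthesis gene Alas2 (0.658).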

How the results depend on the processing

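The 1014 variable genes became 3725 with no filter on low counts, 567 with a mean of at least 5 CPM, 269 on DESeq2's variance-stabilised scale and, chosen after seeing the data, 309 without vehicle 1 and 5 and 1100 without vehicle 3 and 4. The other settings gave 741 to 1077, and leaving out 1 library in turn gave 921 to 1097. The test of spread called 0 genes under each other setting, with 669 to 1175 at an unadjusted p under 0.05, and 319 as DESeq2 dispersion outliers. Of the 100 highest genes by TPM, 49 were shared with the order by CPM and 85 with lengths of the longest transcript. The spread in the drug groups depended on which of the 100 vehicle genes entered. The 10 genes without vehicle 1 and 5 lowest had a median SD of 3.47 in ERKi and 4.14 in the combination, against 0.67 and 2.59 for all 100, and of 3.49 in CDKi, against 3.21, and this split was chosen after seeing the data. Most of the 10 are sex-linked or on-and-off genes: Xist, Ddx3y, Uty, Eif2s3y, Kdm5d, Trim12a, Trim30d and Gbp2b are among them. All 540 list means tried moved by less than the spread between libraries, while 34 of 540 list SDs moved, among them the perineurial list, 0.06 without vehicle 1 against 0.35, and the sensory neuron list, 0.50 without vehicle 1 and 5 against 2.64. Scaling by total counts moved the median of all genes by up to 0.15 on the log2 scale in a library, and DESeq2's size factors by up to 0.06. No paired analysis was possible because a single group was analysed. Depth limits values near the floor in vehicle 3 most.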

Other observations

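Dendritic cell genes were few. The lectin gene Cd209a stood at 8.9 ± 4.16 TPM, the receptor gene Flt3 at 6.36 ± 3.88 TPM and the transcription factor gene Zbtb46 at 4.52 ± 1.01 TPM. Flt3 measured 4.35, 14.6, 8.85, 8.13, 2.57 and 15.4 CPM in vehicle 1 to 6, low in vehicle 1 and 5 like the sensory neuron genes. Among chemokines Cxcl14, made by stromal cells, stood at 93.8 ± 31.1 TPM, and the B cell attractant gene Cxcl13 measured 5.31, 4.07, 19, 18.3, 7.04 and 2.69 CPM. The rare collagen genes Col6a5 and Col4a6 measured 1.65, 0.675, 2.5, 0.705, 2.14 and 0.207 CPM and 2.61, 2.82, 6.01, 0.651, 2.14 and 3.31 CPM, and the perineurial transporter gene Slc6a13 2.002, 4.54, 5.51, 4.45, 6.86 and 5.69 CPM. Vomeronasal receptor genes, like the olfactory ones, had a count in the most genes in vehicle 3, with 124, 61, 211, 43, 29 and 22 of 338 genes in vehicle 1 to 6, and were chosen after their values were seen.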
